A study of Mus musculus with 6 samples.

Results

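The piRNA pathway genes described here are Piwil1, Piwil2, Piwil4, Mael, Asz1, Tdrd1, Tdrd5, Tdrd9, Ddx4 and Gtsf1. They were chosen by name, and all 10 were found among the 18193 genes that the array's annotation named. They were represented by 13 of the 45101 probe sets, with 2 probe sets each for Piwil4, Asz1 and Gtsf1 and 1 for each of the others. RNA of gonads came from C57BL/6 mice, for which the labels give no genetic change or treatment. Testis and ovary were each sampled at 3 ages, called fetal (15.5 days postcoitum), neonatal (day 1 after birth) and adult (10 weeks) here. The 6 groups had 1 array each, so no comparison below has a replicate check or a test. A model of sex over the 3 ages was not run. The number of animals behind an array was not stated in the labels.

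piRNAs are small RNAs of the germ line that guide PIWI proteins to the transcripts of transposons. Piwil2 (MILI) and Piwil1 (MIWI) encode PIWI proteins that cut target RNA, and Piwil4 (MIWI2) encodes the nuclear PIWI protein that directs DNA methylation of transposons in fetal male germ cells. Ddx4 and Tdrd9 encode RNA helicases, and Tdrd1 and Tdrd5 encode proteins with tudor domains, which gather the pathway in cytoplasmic granules. Asz1 encodes a protein of the mitochondrial surface where piRNAs are made, Mael a partner of the pathway in granules and nucleus, and Gtsf1 a small zinc finger protein that assists PIWI proteins. In mice the loss of many of these genes sterilises males, while females lacking most of them are fertile.

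Values are signals in arbitrary units on a linear scale, after each array was multiplied to a common trimmed mean. Signals under a floor of 75.3, the median of all scaled signals, were set to the floor before ratios were taken, and such a ratio is a bound, written as at least N-fold. Calls of higher or lower were made at 4-fold. The only measure of error, called the technical SD, is the robust SD of a log2 ratio between probe sets of the same gene. It was 0.65 for adult over fetal testis, 0.68 for adult testis over adult ovary, 0.31 for the neonatal pair and 0.18 for the fetal pair. It covers no variation between animals and no error shared by all probe sets of an array, such as that of scaling. Single genes can exceed it, as Asz1 did in the adult pair (log2 3.17 and 0.87 by its 2 probe sets). RNA integrity can be read from the ratio of 3' to 5' signal of control genes. The Gapdh ratio of adult testis was 2.36 and that of neonatal ovary 3.12, with 1.32 to 1.45 elsewhere, and the Actb ratios ran from 1.81 (adult testis) to 3.78 (fetal ovary). The part of these differences in the results was not tested. The labelled tissues were visible in their markers. All 8 spermatid genes were above the floor in adult testis, with 7 of them at the floor in fetal testis. The oocyte list had 9 of 10 genes above the floor in neonatal ovary and 10 of 10 in adult ovary, but 2 of 10 in fetal ovary, and it had 1 of 10 in fetal and 5 of 10 in adult testis, where their summed signal was 1372 against 11075 in adult ovary.

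Of the 3 PIWI genes, Piwil4 and Piwil1 had separate places in time, and Piwil2 overlapped both. Piwil4 was highest in fetal testis, Piwil1 was above the floor in adult testis alone, and Piwil2 was above the floor on 5 of the 6 arrays. The Piwil4 signal was 597, 148 and 8.79 in fetal, neonatal and adult testis, and 21.1, 36.4 and 17.1 in fetal, neonatal and adult ovary. It was therefore at the floor in adult testis and in every ovary. Its probe set can cross-hybridize. The other probe set of Piwil4 was dimmer, with 83.9 in fetal testis as its only value above the floor, so the order with fetal testis first is shared by both. Piwil1 had signals of 73.6, 58.6 and 2663 in the testes by age and of 18.6, 36.4 and 17.2 in the ovaries. Only adult testis was above the floor, and the other 5 values have no order. Piwil2 had 743, 545 and 1933 in the testes and 195, 1005 and 64.7 in the ovaries. In this scaling its value in neonatal ovary lay between adult and fetal testis, and adult ovary was at the floor.

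**Figure D1:**
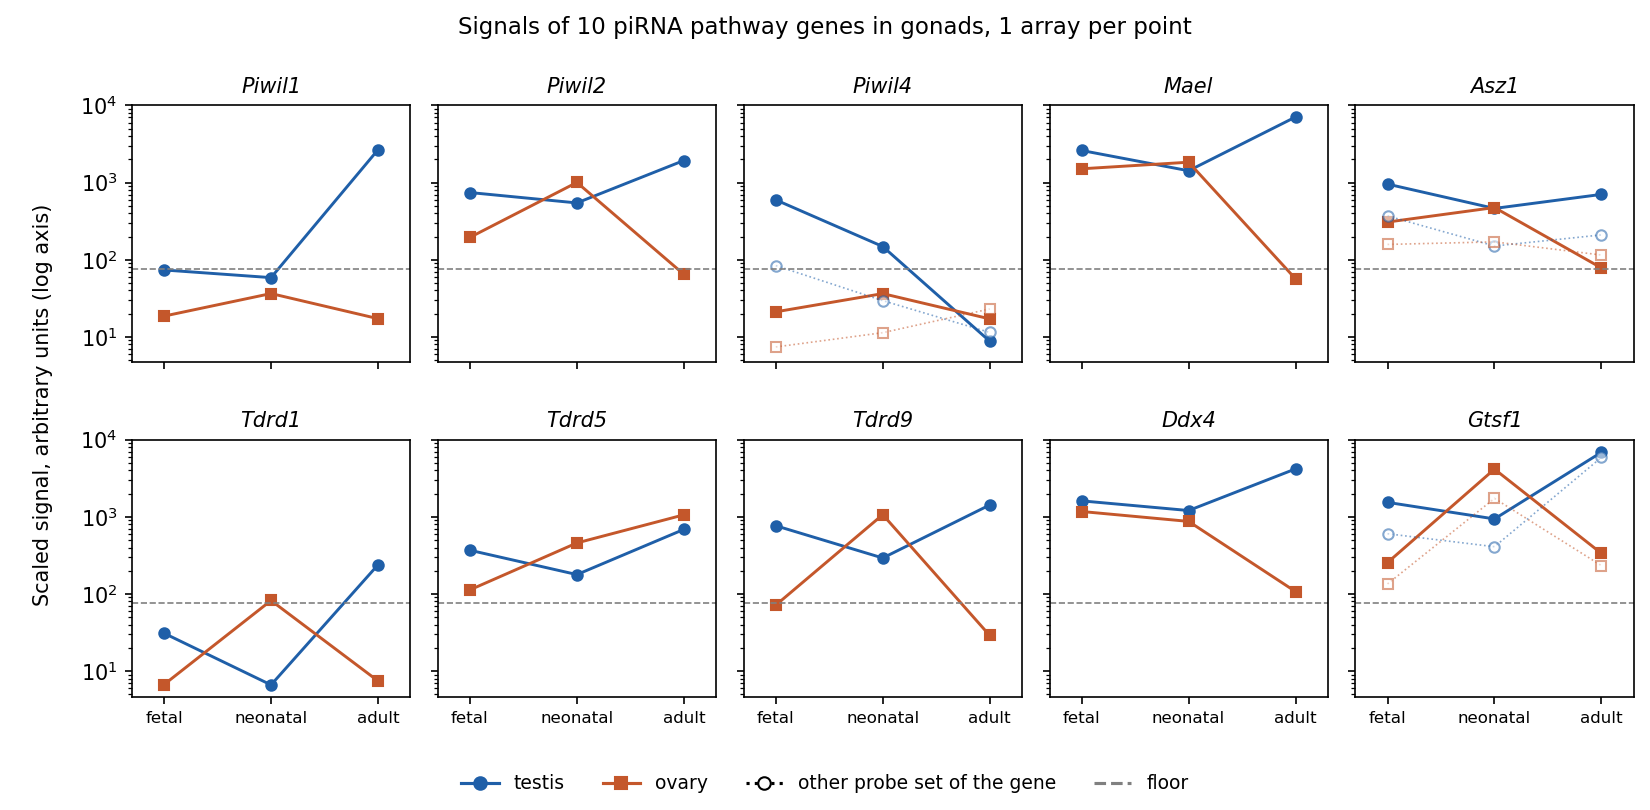
Scaled signals (log axis) of the 10 genes by age in testis (circles) and ovary (squares), 1 array per point, with the floor of 75.3 as a dashed line and further probe sets of a gene as open symbols on dotted lines. Piwil4 falls with age in testis to 8.79 in the adult, Piwil1 stands above the floor in adult testis alone, and Gtsf1 and Tdrd9 peak among the ovaries in the neonate, at 4152 and 1066.

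The helicase gene Ddx4 and the granule gene Mael were bright in gonads of both sexes before adulthood. Ddx4 stood at 1610, 1206 and 4181 in fetal, neonatal and adult testis and at 1172, 872 and 107 in the ovaries. Neonatal testis and fetal ovary differed by 0.04 on the log2 scale, within the technical SD of 0.26, and adult ovary was the lowest by a wide gap. Mael had 2608, 1424 and 7089 in the testes and 1510, 1838 and 56.4 in the ovaries, so it was at the floor in adult ovary alone. Tdrd9, the other helicase, had 766, 292 and 1423 in the testes and 71.6, 1066 and 28.9 in the ovaries. It was at the floor in fetal and adult ovary, while neonatal ovary and adult testis differed by less than their technical SD of 0.69 (log2 difference 0.42).

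Of the tudor genes, Tdrd5 was the only member with its highest signal in an ovary. Its signals were 368, 178 and 687 in fetal, neonatal and adult testis and 113, 458 and 1061 in the ovaries. Adult ovary, adult testis, neonatal ovary and fetal testis, in this order, each differed from the next by less than the technical SD. Tdrd1 was dim on every array, with 30.9, 6.62 and 238 in the testes and 6.70, 82.2 and 7.45 in the ovaries. It was above the floor in adult testis and, barely, in neonatal ovary, so it could not reach a ratio of 4 in any comparison.

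Asz1 and Gtsf1 were above the floor on all 6 arrays. Asz1 stood at 956, 462 and 703 in fetal, neonatal and adult testis and at 308, 475 and 78.3 in the ovaries. Fetal and adult testis, adult testis and neonatal ovary, and neonatal ovary and neonatal testis differed by less than the technical SD. Gtsf1 had 1539, 938 and 6858 in the testes and 255, 4152 and 335 in the ovaries, and its other probe set had 603, 409 and 5893 in the testes and 135, 1732 and 233 in the ovaries. Both probe sets put adult testis first and neonatal ovary next.

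Adult testis was set against fetal testis to ask which members belong to spermatogenesis in the adult and which to the fetal male germ cell. Piwil1 and Gtsf1 were called higher in adult testis and Piwil4 was called lower, and the other 7 members lay within 4-fold. Piwil1 was at least 35.4-fold higher, with 2663 in adult testis and the floor in fetal testis. Gtsf1 was 4.46-fold higher (6858 in adult and 1539 in fetal testis) by the probe set used and 9.77-fold higher by the other. Piwil4 was at least 7.93-fold lower, with the floor in adult testis and 597 in fetal testis. The Piwil4 call was lost with the floor at the 75th percentile and with the dimmer probe set in place of the one that can cross-hybridize, where the bound was 1.11-fold. Mael, Piwil2 and Ddx4 had ratios of 2.72, 2.60 and 2.60, Tdrd1 of at least 3.17, Tdrd5 and Tdrd9 of 1.86 each, and Asz1 of 0.74. Asz1 alone of these stayed within the technical SD.

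Called members were thus 2 of 10 higher and 1 of 10 lower in adult testis. Among the 10140 genes that reached 4 times the floor in adult or fetal testis, 18.5% were called higher and 19.8% lower, so the members' shares were near the background. The members' median log2 ratio was 1.38, beside -0.37 over the 14426 genes above the floor on either array, and 8 of the 10 members had a ratio above 1, beside 40.5% of these genes. The scaling weighs on this comparison. With arrays scaled to 9 hybridization controls, RNAs added in fixed amount, genes above the floor on both arrays had a median log2 ratio of 0.44 in place of -0.54. In that setting 3383 genes were called higher and 714 lower, in place of 1878 and 2011, and 8 members were called higher, all but Piwil4 and Asz1. Piwil4 was still called lower, and the members' median was 2.52.

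Cell makeup moved with the comparison. In bulk tissue, fewer cells of a type and less RNA per cell cannot be told apart. All 8 spermatid genes and 5 of 6 late spermatocyte genes were called higher in adult testis, and their summed floored signals were 68781 and 28955 in adult testis, against 638 and 825 in fetal testis. Of 8 meiotic prophase genes, 6 were called higher, with summed signals of 16944 in adult and 1423 in fetal testis. Of the 4 measured markers of germ cells of both sexes, Dazl, Tex14, Stk31 and Dnd1, none was called higher, Dnd1 was called lower, and their summed signals were 4171 in adult and 4460 in fetal testis. Of 3 measured markers of fetal male germ cells, Dppa4 and Utf1 were called lower, with a summed signal for the list of 749 in adult and 4723 in fetal testis. Another probe set of Utf1 above the floor was under the limit (log2 -0.44). The part of this makeup in the members' ratios was not tested.

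Other genes of the pathway, from a list of 25 of which 21 were measured, went both ways. Called higher in adult than in fetal testis were 5 of the 21, Pld6, Tdrd12, Tdrd7, Rnf17 and Tcfl5, and 3 were called lower. These counts stand beside 18.5% called higher and 19.8% lower among genes that reached 4 times the floor. Pld6, a mitochondrial enzyme of piRNA production, had 1090 in adult and 115 in fetal testis (9.49-fold). By the probe sets used, Rnf17 and Tdrd7, tudor proteins of male germ cells, had 2723 and 5479 in adult testis, against 248 and 746 in fetal testis, and both other probe sets of Rnf17 above the floor were under the limit (log2 1.77 and 1.89). Tdrd12, a further tudor protein, was 4.81-fold higher. Tcfl5, a transcription factor of the basic helix-loop-helix family, had 5757 in adult and 1018 in fetal testis. Dnmt3a, a DNA methyltransferase, was 17.2-fold lower (81.0 in adult and 1390 in fetal testis), with log2 ratios between -3.84 and -1.94 for its 4 other probe sets, and Morc1, which takes part in transposon silencing in male germ cells, was 6.24-fold lower. Snd1, a tudor protein of many tissues, was 4.49-fold lower, while a dimmer probe set of it had a log2 bound of 0.47 in the opposite direction. The list's median log2 ratio was 0.66.

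**Figure D2:**
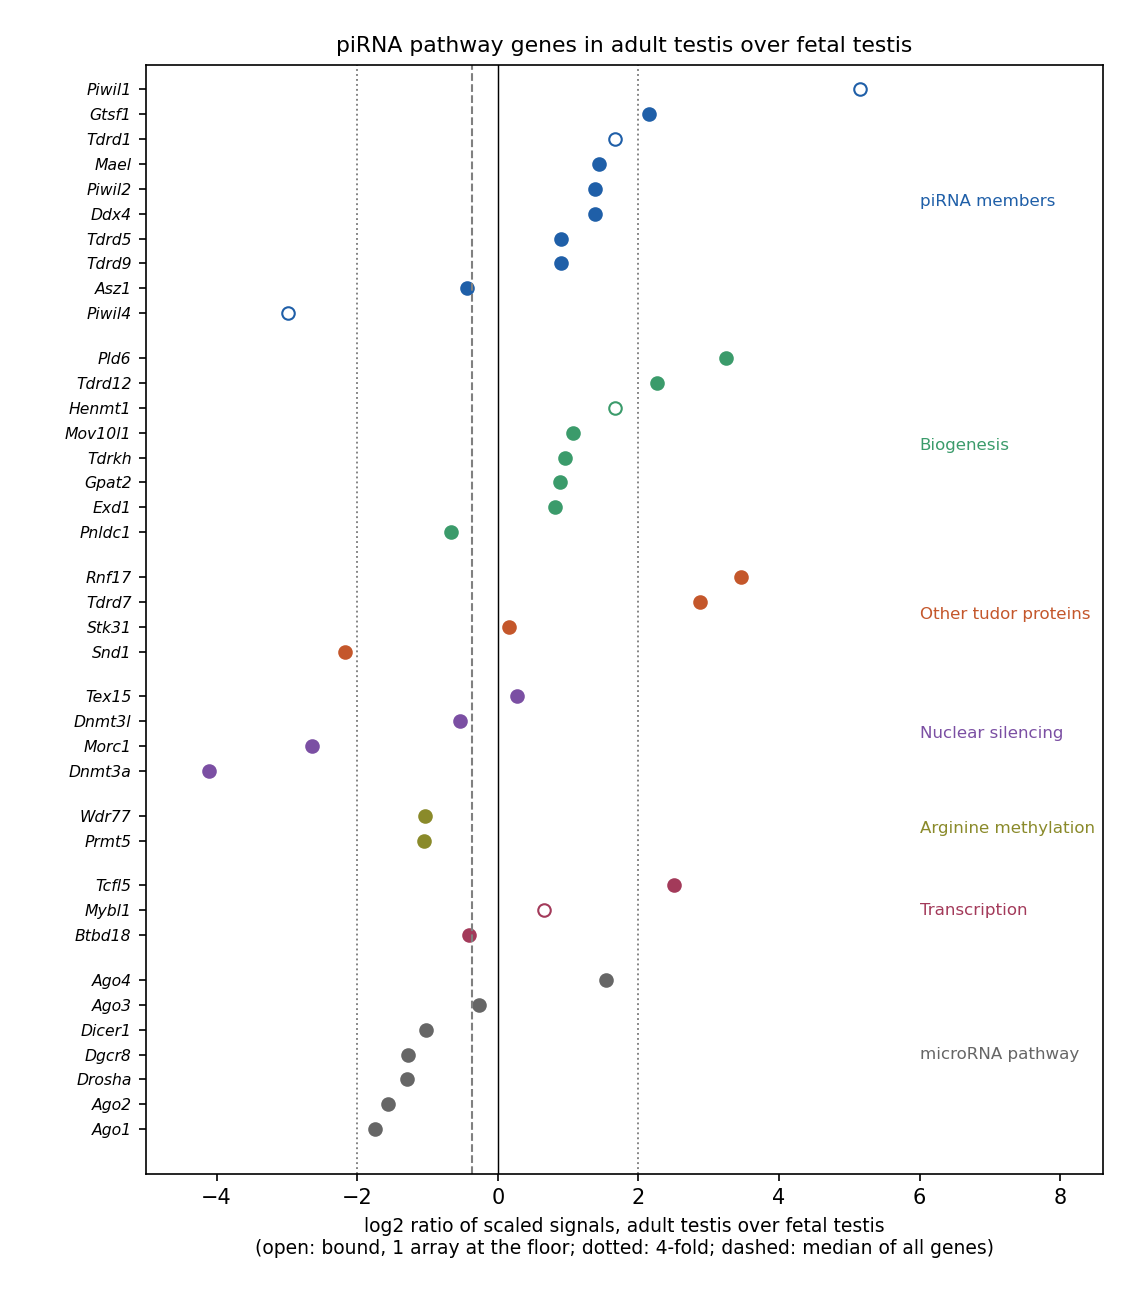
Log2 ratios of scaled signals in adult testis over fetal testis for the 10 members, for 21 other measured genes of the piRNA pathway and for 7 microRNA pathway genes. Open circles are bounds with 1 array at the floor, dotted lines mark 4-fold and the dashed line marks the median of all genes, -0.37. Piwil1 lies farthest to the right (bound of 5.14) and Dnmt3a farthest to the left (-4.10).

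The stretch upstream of each annotated start was read because most members had higher values in adult than in fetal testis. RefSeq promoters of assembly GRCm38.p6 were matched for 9 of the 10 members, with 12 annotated starts. The sequences below are the 250 bases before the start, 5′ to 3′ on the gene's strand, with the letters of 2 motifs in capitals. They are shown for the member with the largest ratio (Piwil1), for other members with an E-box (Tdrd9, Mael, Ddx4), and for Gtsf1 and Piwil4, which were called in this comparison and hold neither motif. Piwil4 had a further annotated start inside the gene, also without either motif.
Piwil1, chr5:128735996-128736245, + strand: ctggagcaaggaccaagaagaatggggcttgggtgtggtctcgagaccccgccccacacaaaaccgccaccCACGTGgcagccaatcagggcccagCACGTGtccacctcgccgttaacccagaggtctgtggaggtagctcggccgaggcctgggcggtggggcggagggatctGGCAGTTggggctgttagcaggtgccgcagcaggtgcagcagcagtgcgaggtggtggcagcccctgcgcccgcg
Tdrd9, chr12:111971309-111971558, + strand: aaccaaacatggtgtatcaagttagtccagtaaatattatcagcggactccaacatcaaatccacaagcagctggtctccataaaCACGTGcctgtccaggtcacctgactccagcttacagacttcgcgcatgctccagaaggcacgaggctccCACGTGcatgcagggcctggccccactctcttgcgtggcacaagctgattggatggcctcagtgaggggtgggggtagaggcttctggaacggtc
Mael, chr1:166238745-166238994, - strand: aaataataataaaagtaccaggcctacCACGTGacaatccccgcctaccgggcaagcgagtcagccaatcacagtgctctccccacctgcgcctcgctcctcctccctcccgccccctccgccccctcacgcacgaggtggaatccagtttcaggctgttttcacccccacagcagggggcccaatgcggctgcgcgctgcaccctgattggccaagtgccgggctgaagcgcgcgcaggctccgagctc
Ddx4, chr13:112652311-112652560, - strand: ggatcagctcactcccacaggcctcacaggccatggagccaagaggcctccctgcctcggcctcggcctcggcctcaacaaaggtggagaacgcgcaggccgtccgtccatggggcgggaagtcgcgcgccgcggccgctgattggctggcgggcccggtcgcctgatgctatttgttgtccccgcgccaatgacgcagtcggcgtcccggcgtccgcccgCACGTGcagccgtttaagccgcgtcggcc
Gtsf1, chr15:103430428-103430677, - strand: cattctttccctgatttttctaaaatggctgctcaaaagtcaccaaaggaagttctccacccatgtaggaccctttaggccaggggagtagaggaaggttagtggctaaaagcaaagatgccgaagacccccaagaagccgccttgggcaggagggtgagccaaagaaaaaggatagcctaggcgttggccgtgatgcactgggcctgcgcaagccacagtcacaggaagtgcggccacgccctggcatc
Piwil4, chr9:14740673-14740922, - strand: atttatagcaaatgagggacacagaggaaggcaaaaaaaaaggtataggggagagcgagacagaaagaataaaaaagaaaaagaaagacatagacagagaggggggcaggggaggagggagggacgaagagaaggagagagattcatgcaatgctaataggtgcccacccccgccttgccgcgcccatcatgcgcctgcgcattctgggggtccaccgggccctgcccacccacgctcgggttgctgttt
The E-box letters CACGTG, which read the same on both strands and are bound by basic helix-loop-helix factors, stood in these 250 bases in 5 of the 9 genes, Piwil1, Mael, Tdrd1, Tdrd9 and Ddx4. By starts, 6 of 12 held them, beside 6.02% of all 32851 promoters in the same window. These letters contain CG, and the 6 starts with them held 8 to 31 CG each, beside a median of 6 over all promoters. The share among promoters of like CG count was not taken. Piwil1 and Tdrd9 held 2 copies each, and the copies counted from 2 starts of Tdrd1 are the same site. The letters GGCAGTT or their complement on the other strand, a form of the site of the Mybl1 factor, which activates piRNA genes in spermatocytes, stood in Piwil1 alone, 75 bases before the start, and in 3.33% of all promoters. The looser letters AACNGNC, on either strand, stood in 5 genes (Piwil1, Mael, Tdrd1, Tdrd5 and Tdrd9). By starts this was 5 of 12, beside 27.7% of all promoters. The motifs were chosen with the sequences in view, so these counts are a description only. Tcfl5, of the family that binds E-boxes, had the values given above, and Mybl1 was dim, with 119 in adult testis and the floor on the other 5 arrays.

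**Figure D3:**
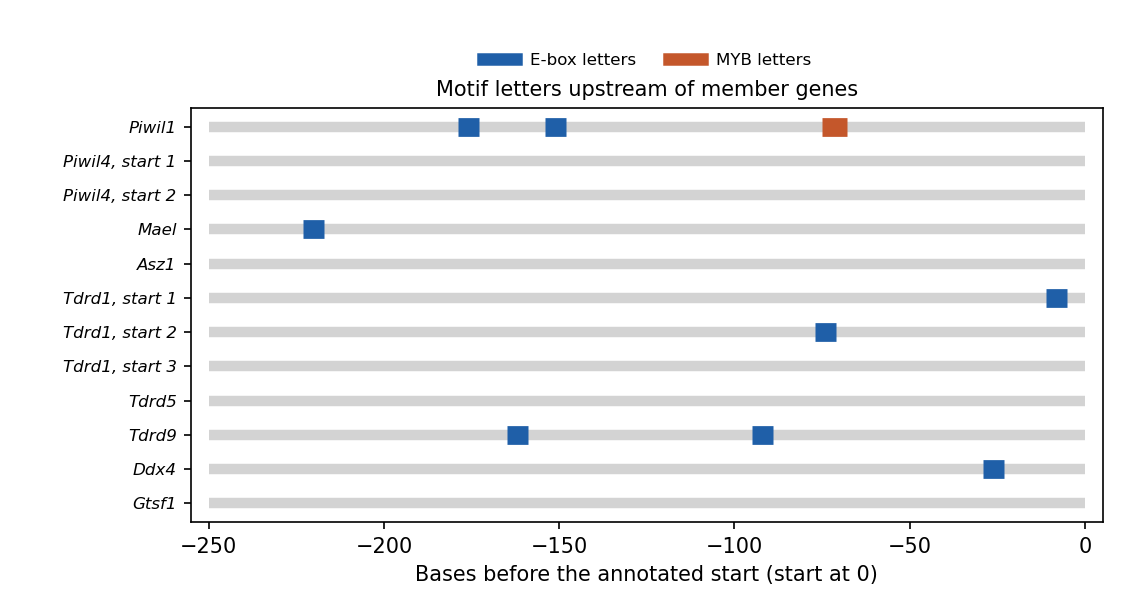
Positions of the E-box letters and the MYB letters GGCAGTT in the 250 bases before each of 12 annotated starts of 9 member genes, as bases before the start. Piwil1 and Tdrd9 carry 2 E-boxes each, and Piwil4, Asz1, Tdrd5 and Gtsf1 carry none.

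Fetal testis was set against fetal ovary, where germ cells of the same age have entered meiosis. Every one of the 8 members above the floor in either gonad had the higher signal in fetal testis, beside 46.6% of 12595 genes. Of these members, Tdrd9, Piwil4 and Gtsf1 were called. Tdrd9 was at least 10.2-fold higher (766 in fetal testis, floor in fetal ovary), Piwil4 at least 7.93-fold (597 and the floor) and Gtsf1 6.03-fold (1539 and 255). The other probe set of Gtsf1 gave 4.47-fold, and with the dimmer probe set Piwil4 was not called. Piwil2, Tdrd5 and Asz1 had ratios of 3.81, 3.26 and 3.11, under the limit of 4. Mael and Ddx4, which mark germ cells of both sexes, were closer, at 1.73 and 1.37. All 8 log2 ratios were larger than the technical SD of 0.18.

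The 3 of 10 members called higher stand beside 0.935% of the 8559 genes that reached 4 times the floor in either fetal gonad, and the 0 of 10 called lower beside 0.409%. The members' median log2 ratio was 1.67, with 2 members at the floor in both gonads counted as 0, beside -0.02 over 12595 genes. With the floor at the 75th percentile Gtsf1 alone was called and the members' median was 0.79. Markers of germ cells of both sexes had values in both directions. Dazl had 1222 in fetal testis and 1916 in fetal ovary, Stk31 had 1192 and 1226, and the summed signal of the 4 markers was 4460 in fetal testis and 3835 in fetal ovary. Dnd1, an RNA-binding protein of germ cells, was called higher in fetal testis (1143 and 160), as were all 3 measured markers of fetal male germ cells. For Utf1, 1 of these 3, another probe set above the floor was under the limit (log2 0.44). Meiotic prophase genes ran the other way, with 8 of 8 called lower in fetal testis. Of the other pathway genes, 2 of 21 were called, both higher in fetal testis. Morc1 was at least 12.9-fold higher, and Dnmt3l, the cofactor of DNA methylation in fetal male germ cells, at least 6.87-fold. Dnmt3l is also 1 of the 3 markers of fetal male germ cells above, so it is counted in both lists.

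In neonatal gonads Gtsf1 alone was past the limit. Lower in testis were 7 of the 10 members, beside 56.3% of all genes, and the 7 include Tdrd1, a bound near 0, and Asz1. Gtsf1 was 4.42-fold lower in testis, with 938 in neonatal testis and 4152 in neonatal ovary, and its other probe set gave 4.23-fold. It fell short of the limit with signals as deposited and with arrays scaled to the same median (log2 -1.92 and -1.96). Tdrd9 was 3.65-fold lower in neonatal testis (292 and 1066), Tdrd5 2.57-fold lower (178 and 458) and Piwil2 1.84-fold lower (545 and 1005). Mael, at 1.29-fold lower, also exceeded the technical SD of 0.31 (log2), and Asz1, at 1.03-fold lower, did not. Ddx4 was 1.38-fold higher in testis and Piwil4 at least 1.97-fold higher, and the difference of Asz1 and that of Ddx4 changed sign with the scaling. The 1 of 10 members called lower stands beside 2.93% of 8658 genes, and the 0 of 10 called higher beside 2.02%. The members' median log2 ratio was -0.25, beside -0.07 over 13119 genes. With signals as deposited, 206 genes were called higher and 178 lower in place of 175 and 254, with the same median 214 and 203, and with the hybridization controls 98 and 394.

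The change lay on both sides. In testis, each of the 8 members above the floor was lower in the neonate than in the fetus, by 4.02-fold for Piwil4, 2.62-fold for Tdrd9, 2.07-fold for Asz1 and Tdrd5, 1.83-fold for Mael, 1.64-fold for Gtsf1, 1.36-fold for Piwil2 and 1.33-fold for Ddx4. Genes above the floor in both testes had a median log2 ratio of -0.05. The share of all genes lower in the neonate was not counted, and this step was not recomputed under other scalings. Marker lists also differed between these testes, in both directions. The 4 markers of germ cells of both sexes summed to 2554 in neonatal and 4460 in fetal testis. Dazl among them ran the other way (1615 and 1222). The 3 markers of fetal male germ cells summed to 1121 and 4723, and the 7 Sertoli cell genes to 32775 and 18037. The part of these lists in the members' values was not tested. In ovary, Gtsf1 was 16.3-fold higher in the neonate than in the fetus, Tdrd9 at least 14.2-fold, Piwil2 5.15-fold and Tdrd5 4.06-fold. Asz1 and Mael differed less (1.54-fold and 1.22-fold), and Ddx4 was 1.34-fold lower. Genes above the floor in both ovaries had a median log2 ratio of -0.02, and the share of all genes past 4-fold was not counted. The scaling multiplied neonatal ovary by 1.26 and fetal ovary by 0.913. These ratios were not recomputed under other scalings, and Tdrd5 lay close to the limit. In the main scaling Gtsf1, Tdrd9 and Piwil2 had more signal in neonatal ovary than in fetal testis, by 2.70-fold, 1.39-fold and 1.35-fold. Fetal testis was multiplied by 0.968 there, and these ratios too were not recomputed, so the order for Tdrd9 and Piwil2 is not firm. Piwil4 had no signal above the floor in neonatal ovary. Oocyte markers also differed between neonatal and fetal ovary. Their summed floored signal was 15623 in neonatal and 1122 in fetal ovary, with 8 of 10 genes at the floor in fetal ovary, and their part in the result was not tested. Of 8 meiotic prophase genes, 4 were called lower in neonatal testis than in neonatal ovary. The 4 markers of germ cells of both sexes had 1873 in neonatal and 3835 in fetal ovary.

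**Figure D4:**
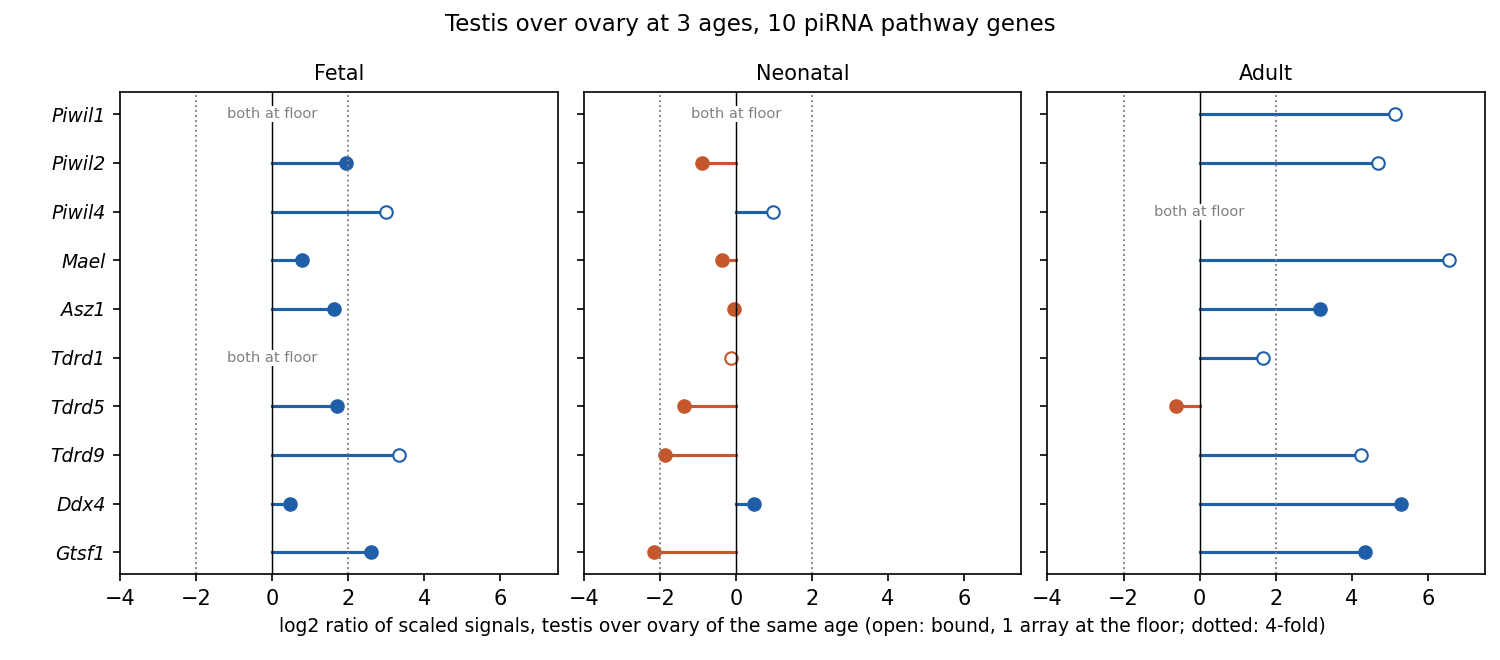
Log2 ratio of testis over ovary of the same age for the 10 members in fetal, neonatal and adult gonads. Open circles are bounds and dotted lines mark 4-fold. Gtsf1 lies at 2.59 in the fetus, -2.15 in the neonate and 4.35 in the adult, and Tdrd5 is the only member below 0 in the adult (-0.63).

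In adult gonads most members were higher in testis. Called were Mael, at least 94.2-fold (7089 in adult testis, floor in adult ovary), Ddx4 39.0-fold (4181 and 107), Piwil1 at least 35.4-fold, Piwil2 at least 25.7-fold, Gtsf1 20.4-fold, Tdrd9 at least 18.9-fold and Asz1 8.99-fold. The other probe set of Asz1 gave 1.82-fold (210 in adult testis and 115 in adult ovary), so this call rests on 1 probe set, and it was lost with the floor at the 75th percentile. Tdrd1 was at least 3.17-fold higher, and Piwil4 was at the floor in both. Tdrd5 had 687 in adult testis and 1061 in adult ovary, 1.54-fold lower in testis and within the technical SD of 0.68 (log2), and its sign was the opposite (log2 0.34) under hybridization control scaling.

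The 7 of 10 members called higher stand beside 19.5% of 10178 genes, and the 0 of 10 called lower beside 21.3%. Under the hybridization controls 3216 genes were called higher and 894 lower, in place of 1980 and 2166, and 8 members higher. The members' median log2 ratio was 4.30, beside -0.35 over 14349 genes. In adult ovary all 10 oocyte genes were above the floor, from Figla, close to the floor, to Gdf9 at 2395. Of the members, Tdrd5 (1061), Gtsf1 (335), Ddx4 (107) and Asz1 (78.3) were above the floor there. Mael, Piwil2, Tdrd9, Piwil1, Piwil4 and Tdrd1 were at the floor. Whether oocytes hold transcripts of these floored members was not tested, because the ovary was measured in bulk. Lists of germ cells of both sexes, meiotic prophase, late spermatocytes and spermatids also had higher sums in adult testis. The oocyte list went the other way, with 1372 in adult testis and 11075 in adult ovary and 7 of 10 genes called lower. The summed signal of the 4 markers of germ cells of both sexes was 4171 in adult testis and 889 in adult ovary. Dnd1, 1 of these 4, was lower in adult testis (146 and 261). Meiotic prophase genes summed to 16944 in adult testis and 641 in adult ovary, late spermatocyte genes to 28955 and 829, and spermatid genes to 68781 and 602. The part of these lists in the members' ratios was not tested. Of the other pathway genes 11 of 21 were called higher in adult testis, among them Rnf17 (at least 36.2-fold), Mov10l1, an RNA helicase that feeds piRNA production (at least 15.1-fold), and Tcfl5 (at least 76.5-fold). Snd1 and Dnmt3a were called lower by the probe sets used. Of 3 other Dnmt3a probe sets above the floor, 1 was past the limit (log2 -2.79) and the others were not (-0.50 and -0.55), and the dimmer Snd1 probe set had the opposite sign (0.47).

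Among themselves the members fell into a few shapes over the 6 arrays. Likeness was measured as the root mean square difference of log2 signals, floored and centred on each gene's mean. Tdrd9 and Gtsf1 were closest (0.41), followed by Mael and Ddx4 (0.50) and by Piwil2 and Tdrd9 (0.55). Among 11286 other genes that reached 4 times the floor, the nearest to Ddx4 was Igf2bp3 (0.24), which was also the nearest to Mael (0.49). The nearest to Piwil2 was Rpl39l (0.54), slightly closer than Tdrd9. The nearest to both Tdrd9 and Gtsf1 was Gm364 (0.82 and 0.80), so no gene outside the members was as close to Tdrd9 or Gtsf1 as they were to each other. The nearest to Piwil4 were Pdyn (0.30) and Dnd1 (0.32), with Dnd1 at 1143, 277 and 146 in the testes by age. Piwil4 was at the floor on 4 arrays, so this likeness rests mainly on fetal and neonatal testis. The nearest to Piwil1 was Hyal5 (0.0024), one of the genes above the floor in adult testis alone, where likeness only compares 1 value. The nearest to Tdrd5 was Pla1a (0.45) and to Asz1 Rps4l (0.48). For Tdrd1 it was Sec23ip (0.05), though Tdrd1 was at the floor on 4 arrays.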

How the data were processed

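Biotin-labelled RNA of 6 gonad samples, grouped by sex and age from the sample titles, was measured on 1 Affymetrix array each. The deposited table holds 1 linear intensity per probe set and array. The only tool listed in the submitters' processing notes is GCOS, version 1, with no role. How background, probe summary and scaling were handled is unknown here, which bears most on ratios of dim genes. The number of arrays limits the precision.

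Each array was multiplied to the same 2% trimmed mean (factors 0.913 to 1.26) and floored at the median of all scaled signals. Of 45101 probe sets, 34945 had 1 gene symbol in the platform annotation, 932 had several and 9211 were unnamed. Where a gene had several probe sets, the brightest on average was used. No test was made, with 1 array per group. Ratios of 4 or more were counted, and shares are of genes that reached 4 times the floor on either array. Of the 10 members, 9 reached it for adult over fetal testis, 8 in the fetal and in the adult pair and 7 in the neonatal pair. The spread came from pairs of probe sets for 1 gene where both exceeded the floor (3762 genes for adult over fetal testis). Members and lists were chosen with earlier results of these data known. Dnmt3l, Stk31 and Mybl1 each stand in a pathway list and in a marker list. Genes named are the members, genes of the fixed lists, and the 3 nearest genes of each member, or fewer of them. The calling was run on simulated arrays, all built from the fetal testis array, as a check of the code. These had less spread and fewer changed genes than the adult testis comparisons, so they do not vouch for calls there. Alternatives changed scaling, floor, probe sets and limit. Python 3.11.15, numpy 2.4.6 and pandas 2.3.3 were used.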

Additional observations from a re-analysis of the deposited data

Results flagged for a closer look

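Gtsf1, Tdrd9 and Tdrd5 had testis over ovary ratios past 2-fold in opposite directions at different ages. The difference between ages was not tested, because each gonad and age has 1 array. Gtsf1 had a log2 ratio of testis over ovary of 2.59 in the fetus, -2.15 in the neonate and 4.35 in the adult. Tdrd9 had 3.35 in the fetus (a bound), -1.87 in the neonate and 4.24 in the adult (a bound). Tdrd5 had 1.71 in the fetus and -1.36 in the neonate. The neonatal ovary array, which enters every neonatal value, also had the lowest trimmed mean as deposited (256, against 299 to 353 on the others) and the highest Gapdh ratio of 3' to 5' signal, and the part of these in the ratios was not tested.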

How the results depend on the processing

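Of the 80 member counts recomputed under alternatives, 68 stayed within 1.5 times the main value and 12 did not. For adult over fetal testis, members called higher numbered 8 under the hybridization controls and 6 with a ratio of 2, in place of 2, and members called lower 0 in place of 1 with the floor at the 75th percentile and without probe sets that can cross-hybridize. For fetal testis over fetal ovary, members called higher numbered 1 with the floor at the 75th percentile and 6 with a ratio of 2, in place of 3. For neonatal testis over neonatal ovary, in place of 1 member called lower there were 0 with signals as deposited and with the same median, 2 under the hybridization controls and with 16 added in place of a floor, and 3 with a ratio of 2, and 1 member in place of 0 was called higher with the floor at the 25th percentile. Counts for adult testis over adult ovary stayed between 6 and 8 higher and at 0 lower. Of 360 member ratios under alternatives, 5 had the opposite sign, for Asz1, Ddx4 and Tdrd5, and none of these was a called ratio. Over all genes, calls in either direction ranged from 1838 to 8068 around 3889 for adult over fetal testis, from 27 to 537 around 115 in the fetus, from 144 to 1747 around 429 in the neonate and from 1983 to 8119 around 4146 in the adult, the extremes coming from the floor at the 75th percentile and the ratio of 2. Signals near the floor limit Tdrd1, the weaker probe set of Piwil4, and every bound. No paired analysis was possible because the groups share only replicate number 1, each having 1 array, and the labels tie no testis to an ovary.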

Other observations

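The microRNA pathway, which uses the Argonaute relatives of the PIWI proteins, was measured beside the piRNA members. Of 7 genes measured, none was called between adult and fetal testis, and 6 had the lower signal in adult testis, with a median log2 ratio of -1.27. In this comparison 59.5% of all genes were lower and genes that exceeded the floor in both testes had a median of -0.54. Scaled to the hybridization controls, 4 of the 7 were lower, 1 was called higher and their median was -0.13. In the main scaling Ago2 had 528 in adult and 1559 in fetal testis, and Drosha, the nuclease of primary microRNA transcripts, 876 and 2139. Ago4 was the exception, with 637 in adult and 219 in fetal testis. In fetal testis over fetal ovary, all 7 ratios lay between -0.62 and -0.01 on the log2 scale. In neonatal gonads Drosha had 2027 in testis and 4480 in ovary, and Dicer1 488 and 981.

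The arginine methyltransferase Prmt5, which modifies PIWI proteins, and its partner Wdr77 were lower in adult than in fetal testis by 2.08-fold and 2.05-fold, under the limit of 4. In the ovaries Tdrd5 was the only member with more signal in the adult than in the neonate (1061 in adult and 458 in neonatal ovary, 2.31-fold), measured by 1 probe set and noticed after its values were seen.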
